A study of Mus musculus with 2 samples.

Results

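The regions described here are H3K4me3 regions that lie wholly on the transcribed side of the listed start site of their gene. They are rows of a table of 1381 regions whose nearer edge falls past the start site in the direction of transcription, so that the start site itself is left outside. There were 593 such regions of 592 genes, 42.9% of the table. The rest were 462 regions wholly upstream of the start site and 326 that spanned it. The choice used positions only and no H3K9me3 or H3K4me3 value.

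Each region carries a value of H3K9me3 from 2 chromatin immunoprecipitation libraries of LSK cells, sorted bone marrow cells that lack lineage markers, carry Sca-1 and c-Kit, and include haematopoietic stem cells and early progenitors. The 1 control library came from C57BL6 mice labelled WT control, and the 1 knockout library from C57BL6 mice labelled as Kdm4a, Kdm4b and Kdm4c triple knockout. Both kinds of mice received tamoxifen, which induced the knockout in the conditional strain, and cells were sorted 2 weeks later. No source used here names the driver of the recombinase or says how many animals were pooled. Library totals were inferred from the values. With the lowest control value taken as 1 read, the control total is 24673463 reads. With the lowest knockout value taken as 3 reads, the knockout total is 26061344 reads. The H3K4me3 library that defined the regions belongs to no sample analysed here.

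H3K4me3 is a mark of active promoters and is laid down mainly on the nucleosomes that flank a start site, often more strongly on the side of the gene body. The start site itself usually lies in a nucleosome-poor gap. H3K9me3 is a mark of silenced chromatin, and the KDM4 enzymes remove it. In many cell types promoters rich in CpG sites carry broad H3K4me3, and a zinc finger protein that binds unmethylated CpG recruits the enzyme complex that writes it.

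The DNA of these genes is shown first, because the regions are placed relative to a start site that lies outside them. Start-site windows run from 250 bases before to 50 bases after a start, from the RefSeq promoter table for GRCm38.p6, the assembly that mm10 is built from. They are written 5′ to 3′ on the strand of the gene, with CpG sites in capitals. The windows of Atf7ip, Taf1a and Bola1 are given because their regions stood out in H3K9me3, as described further on. In each of them the RefSeq start equals the listed start (a distance of 0 bp). The windows lie at chr6:136518601-136518900 (plus strand), chr1:183388635-183388934 (plus strand) and chr3:96197537-96197836 (minus strand).
Atf7ip: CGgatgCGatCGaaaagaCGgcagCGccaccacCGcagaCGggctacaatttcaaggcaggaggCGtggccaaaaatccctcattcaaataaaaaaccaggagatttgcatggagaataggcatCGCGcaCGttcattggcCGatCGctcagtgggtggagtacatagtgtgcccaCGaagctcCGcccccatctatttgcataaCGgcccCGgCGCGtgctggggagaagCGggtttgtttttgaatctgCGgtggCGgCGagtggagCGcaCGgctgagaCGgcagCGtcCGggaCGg
Taf1a: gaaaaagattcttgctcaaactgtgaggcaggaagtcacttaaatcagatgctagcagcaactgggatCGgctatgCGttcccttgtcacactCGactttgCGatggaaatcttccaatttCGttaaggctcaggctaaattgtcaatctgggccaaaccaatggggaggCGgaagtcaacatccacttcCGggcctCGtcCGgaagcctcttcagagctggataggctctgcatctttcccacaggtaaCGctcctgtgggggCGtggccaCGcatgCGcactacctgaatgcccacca
Bola1: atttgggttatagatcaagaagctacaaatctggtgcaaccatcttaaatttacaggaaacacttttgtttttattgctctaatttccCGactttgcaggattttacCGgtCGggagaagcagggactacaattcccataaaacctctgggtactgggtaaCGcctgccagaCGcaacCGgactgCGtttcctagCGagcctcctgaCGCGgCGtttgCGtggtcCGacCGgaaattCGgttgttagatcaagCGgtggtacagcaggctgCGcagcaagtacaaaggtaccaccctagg
The Atf7ip window holds 29 CpG sites, that of Bola1 17 and that of Taf1a 13. Atf7ip encodes a partner of the H3K9 methyltransferase SETDB1, Taf1a a subunit of the selectivity factor of RNA polymerase I, and Bola1 a mitochondrial protein of iron-sulfur cluster assembly. On either strand, the Atf7ip window holds the GC box GGGCGG and the motif CCAAT, and the Taf1a window holds CCAAT and the ETS-type motif CCGGAAG. The Bola1 window holds none of the 5 commoner motifs searched.

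DNA from inside the regions could be read only where RefSeq places a start of the same gene within them. The bases below are the parts of such windows that fall inside the downstream region of Thg1l (chr11:45955139-45955438), Cox16 (chr12:81484802-81484937) and Lgmn (chr12:102439043-102439342), all on the minus strand, again with CpG sites in capitals.
Thg1l: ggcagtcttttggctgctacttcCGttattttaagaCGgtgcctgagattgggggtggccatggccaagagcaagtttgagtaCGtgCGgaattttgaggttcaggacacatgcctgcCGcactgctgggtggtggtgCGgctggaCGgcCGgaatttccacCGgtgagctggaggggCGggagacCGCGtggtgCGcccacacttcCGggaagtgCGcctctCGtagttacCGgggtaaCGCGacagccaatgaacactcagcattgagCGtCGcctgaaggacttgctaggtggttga
Cox16: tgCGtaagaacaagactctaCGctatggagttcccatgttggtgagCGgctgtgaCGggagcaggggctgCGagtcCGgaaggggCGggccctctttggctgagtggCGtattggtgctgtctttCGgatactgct
Lgmn: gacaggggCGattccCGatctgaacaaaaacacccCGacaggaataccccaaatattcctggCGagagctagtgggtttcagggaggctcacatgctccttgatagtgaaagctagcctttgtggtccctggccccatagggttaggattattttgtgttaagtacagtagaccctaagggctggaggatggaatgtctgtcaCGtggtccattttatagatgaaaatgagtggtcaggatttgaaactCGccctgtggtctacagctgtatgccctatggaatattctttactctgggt
These stretches show that DNA under a downstream region may or may not be rich in CpG. The Thg1l stretch of 300 bases holds 21 CpG sites, the Cox16 stretch of 136 bases holds 9, and the Lgmn stretch of 300 bases holds 6. Thg1l encodes a transfer RNA guanylyltransferase, Cox16 an assembly factor of cytochrome c oxidase and Lgmn the lysosomal protease legumain.

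The listed gene was a microRNA for 4 regions, and the mature sequences of their RefSeq entries follow, with the seed (bases 2 to 8) in capitals.
mmu-miR-5103: uCAUCCGGgauccccugagg
mmu-miR-484: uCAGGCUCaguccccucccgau
mmu-miR-5135: aGGUCUAGguggcaagggcguccu
mmu-miR-1934-5p: uCUGGUCCccugcuucguccucu
mmu-miR-1934-3p: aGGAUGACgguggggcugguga
No seed was shared among them. Mir5103, Mir484, Mir5135 and Mir1934 are short, and each region's centre lay past the annotated 3′ end of the gene.

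Downstream regions ran from 290 to 1831 bp in width, with a median of 691 bp and quartiles of 493 and 875 bp. Upstream regions were narrower, with a median of 550.5 bp, and spanning regions wider, with a median of 1037.5 bp. The 95% interval of the median was 653 to 717 bp for downstream and 525 to 587 bp for upstream regions, so these did not overlap. Width is tied to class by geometry, because a wide region is more likely to reach the start site and count as spanning. The widest downstream regions belonged to Mtr (1831 bp), which encodes methionine synthase, the non-coding genes Gm16675 (1796 bp) and Ino80dos (1679 bp), and Yars (1592 bp), which encodes tyrosyl-tRNA synthetase. They came close to the start site, with gaps of 16, 20, 118 and 65 bp.

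H3K4me3 height, the authors' own value per region in RPKM (reads scaled to region length and library size), had a median of 11.3 (quartiles 8.97 and 15.5). It was 9.78 in upstream regions and 12.4 in spanning regions. The intervals of these medians were 10.9 to 11.8, 9.47 to 10.2 and 11.8 to 13.1, so downstream regions lay above upstream ones and next to spanning ones. Behind these heights stood a median of 28 H3K4me3 reads per downstream region (range 8 to 166), against 20 upstream. Height also rose with width among the 593 regions (Spearman's rho 0.38, Pearson's r 0.30), which share 1 H3K4me3 library. The highest were Psmd8, a regulatory subunit of the proteasome, at 43.2 RPKM, and Mbd1, which encodes a methyl-CpG binding protein, at 39.8 RPKM. Traf3ip1, a component of the intraflagellar transport machinery, followed at 38.4 RPKM and Fmc1, a mitochondrial ATP synthase assembly factor, at 38.1 RPKM.

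**Figure D1:**
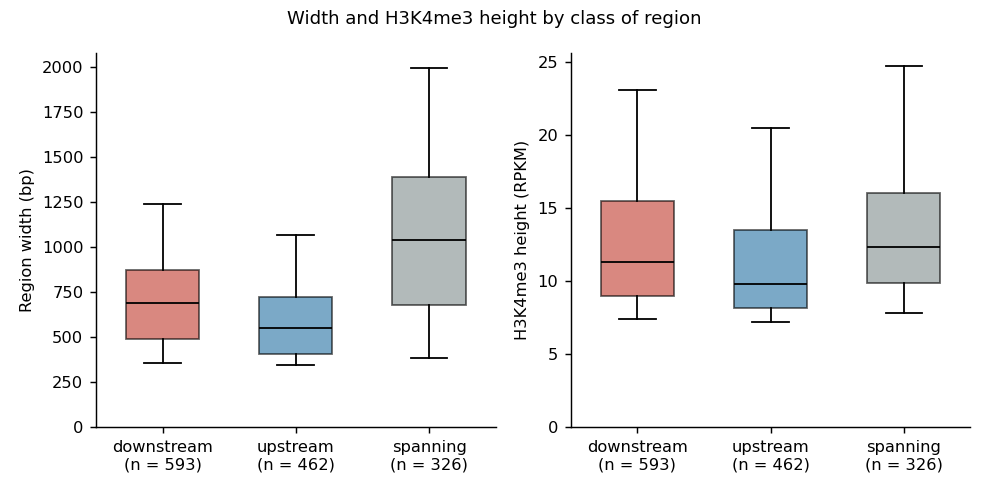
Region width in bp (left) and H3K4me3 height in RPKM (right) for regions wholly downstream (593), wholly upstream (462) and spanning the start site (326). Boxes give quartiles and median and whiskers the 5th to 95th percentiles over regions; the downstream medians of 691 bp and 11.3 RPKM lie above the upstream ones of 550.5 bp and 9.78 RPKM.

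The gap between the start site and the nearer edge had a median of 271 bp (quartiles 164 and 421), against 169 bp (quartiles 81.25 and 303) for upstream regions. The H3K4me3 apex, the position of highest signal, lay at a median of 608 bp past the start site (quartiles 469 and 768, range 176 to 1353). The upstream apices lay at a median of -452.5 bp, nearer to the start. The far edge had a median of 1021 bp. At 600 and at 650 bp past the start site, 515 of the 593 regions (86.8%) covered the position. At 100 bp it was 85 (14.3%), and at 1000 bp 315 (53.1%). Part of this profile follows from the selection, because a member must clear the start site and the table holds no region centred more than 1000 bp from it.

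**Figure D2:**
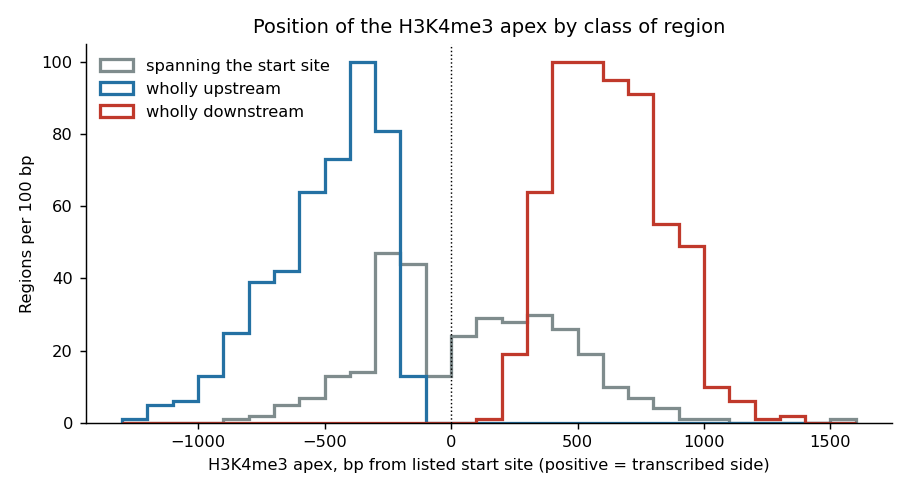
Number of regions per 100 bp of distance between the H3K4me3 apex and the listed start site, with positive distances on the transcribed side. Downstream apices lie between 176 and 1353 bp with a median of 608 bp, upstream apices have a median of -452.5 bp, and spanning regions lie around the start site.

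The members nearest to the start site were Wdcp, with a gap of 2 bp, Mtif2 and Fkbpl, with 3 bp each, and Rbsn, with 5 bp. Mtif2 encodes the mitochondrial translation initiation factor and Rbsn an endosomal adaptor. Just outside the rule, the regions of Dctn5 and Rit1 began 0 and -1 bp from the start site and counted as spanning. Their heights (23.2 and 17.6 RPKM) stood beside 18.1 RPKM for Wdcp and 16.0 RPKM for Mtif2. The farthest members were Rmnd5a, a subunit of a ubiquitin ligase complex, with a gap of 759 bp, Coch (753 bp), Timm10, a chaperone of mitochondrial protein import (747 bp), and H6pd, a sugar phosphate dehydrogenase (746 bp). All 4 were narrow, between 357 and 438 bp.

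By RefSeq class, 550 of the listed genes were protein-coding (92.7%), 36 were long non-coding RNAs (6.07%), 4 were microRNAs and 3 were transcribed pseudogenes. Over all 1381 regions, 92.3% of listed genes were protein-coding and 5.14% long non-coding. Centres lay within the gene for 586 regions and past its end for 7. Besides the 4 microRNAs, these were Gm38436, 2010320M18Rik and Sf3b5, a short gene for a subunit of the splicing complex SF3b. Members lay on all 19 autosomes and the X chromosome. Their share of a chromosome's regions ran from 30.2% on chromosome 14 (13 of 43) to 63.6% on chromosome 15 (28 of 44).

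Whether a downstream region marks a further start of the same gene was not tested. The RefSeq promoter table holds 32851 starts for 27025 genes, so it lists few further starts per gene. On the chromosomes covered by the promoter table, 16 of 577 downstream regions (2.77%, 95% interval 1.59 to 4.46) held a RefSeq start of their own gene. Only 457 of the 577 had a RefSeq start within 100 bp of the listed one. A start inside a region therefore need not be additional to one at the listed site. These 17 starts lay 108 to 1173 bp past the listed one, and 15 of them lay before the H3K4me3 apex of the region. Of 442 upstream regions, 6 (1.36%, 0.50 to 2.93) held a RefSeq start of their own gene. A start of a different gene lay inside 5 downstream regions (0.867%, 0.282 to 2.01) and inside 25 of 442 upstream regions (5.66%, 3.69 to 8.24). The 5 included Derl2 within the region listed for Mis12 and Dhx57 within that of Morn2. A start on the opposite strand within 1 kb upstream of the listed start, a head-to-head arrangement, was found for 91 downstream regions (15.8%, 12.9 to 19.0) and 78 upstream regions (17.6%, 14.2 to 21.5). The listed start equalled the outer 5′ end of the RefSeq gene for 314 of the 593 (53.0%).

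Start-site windows could be matched for 457 downstream regions, with a RefSeq start within 100 bp of the listed one. They held a median of 22 CpG sites (quartiles 16 and 29), against 24 for 337 upstream and 15 for 234 spanning regions. The 95% interval of the median was 21 to 23 for downstream, 23 to 25 for upstream and 14 to 17 for spanning regions. Over all 32851 windows of the RefSeq table the median was 7. The G and C content followed the same order, with medians of 60.7%, 62.3%, 55.2% and 52.7%. Genes whose H3K4me3 region left the start site free, on either side, had more CpG sites there than genes whose region covered it. Observed over expected CpG had medians of 0.80, 0.82, 0.74 and 0.38 in the same order.

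Of 7 motifs searched on both strands, none of which contains another, the GC box GGGCGG, bound by Sp1-type factors, differed most between the classes. It was present in 313 of 457 downstream windows (68.5%, 64.0 to 72.7), 70.6% of upstream windows, 51.3% (44.7 to 57.8) of spanning windows and 35.7% of all windows. The motif CCGGAAG, of the ETS family, was present in 30.9% (26.6 to 35.3) of downstream windows, 29.4% of upstream, 29.5% of spanning and 8.86% of all windows. The core ATGGCGGC of the YY1 motif was found in 34 downstream windows (7.44%, 5.21 to 10.2). It was in 6.82% of upstream, 5.13% of spanning and 2.24% of all windows. CCAAT, bound by NF-Y, was found in 39.6% of downstream, 40.4% of upstream, 46.2% of spanning and 37.4% of all windows. The TATA box TATAAA was found in 4.81% of downstream windows (3.04 to 7.20), 3.86% of upstream, 7.26% of spanning and 13.6% of all windows. The NRF1 motif was present in 12 downstream windows (2.63%), 2.08% of upstream, 2.56% of spanning and 0.971% of all windows. The Kaiso motif was in 2 downstream windows (0.438%), 1.48% of upstream, 0.427% of spanning and 0.466% of all windows. These matches describe the letters only, and no test was made over genes.

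**Figure D3:**
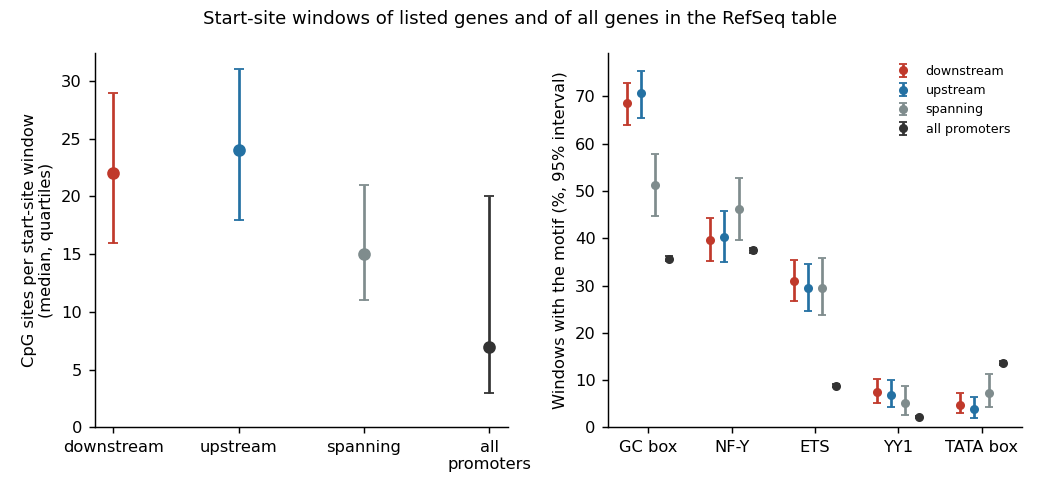
Left, CpG sites per start-site window (points are medians, bars quartiles over windows). Right, share of windows with each motif in percent, with 95% exact binomial intervals, for downstream (457), upstream (337) and spanning (234) regions and all 32851 RefSeq windows; downstream and upstream regions lie together at 68.5% and 70.6% for the GC box, above the spanning regions at 51.3%.

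H3K9me3 was low in both libraries at the downstream regions. A region held 1 to 22 control reads (median 2) and 3 to 77 knockout reads (median 6), which are 0.0811 and 0.230 RPM (reads scaled to library size) at the median. The control value was a single read at 292 regions (49.2%), and 366 regions (61.7%) held fewer than 10 reads in both libraries together. In all other regions these shares were 44.2% and 55.5%. The commonest pattern was 1 control and 3 knockout reads, found at 120 regions (20.2%), followed by 1 and 4 reads at 81. The table holds no ratio below 2.01 and no control value below 1 read. The commonest pattern is thus the lowest pair of reads it can hold. Read numbers did not follow region width (rho -0.01 over 593 regions), and no source used here gives the width over which reads were counted. No input library is among the samples analysed here, so background was not measured.

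Every region of the table has a knockout over control ratio above 2 (lowest 2.01). A higher knockout value at the downstream regions is therefore not a result. With 1 library per group no test between conditions could be made. Intervals cover counting error only and not the selection of the table on this ratio. An interval above 1 or above 2 thus describes reads of regions already picked for a high ratio. Together the 593 regions held 1403 control and 4971 knockout reads, a joint ratio of 3.35 (95% interval 3.16 to 3.56). All other regions held 1976 and 7284 reads, with a ratio of 3.49 (3.32 to 3.67). Joint ratios pool the reads of many regions, so their intervals leave out variation between regions. The joint ratio of downstream regions divided by that of the others was 0.96 (0.89 to 1.04), an interval that includes 1. Among regions whose listed start equals the outer RefSeq 5′ end, it was 0.897 (0.806 to 0.999), an interval just below 1. Against upstream regions alone it was 0.96 (0.88 to 1.05), and against spanning regions 0.96 (0.87 to 1.06). The median ratio was 2.84 (quartiles 2.68 and 3.98) against 3.14 (2.84 and 4.73) for the others, and with so few reads per region the same ratios recur. A ratio of 2.84 is that of 1 control and 3 knockout reads.

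**Figure D4:**
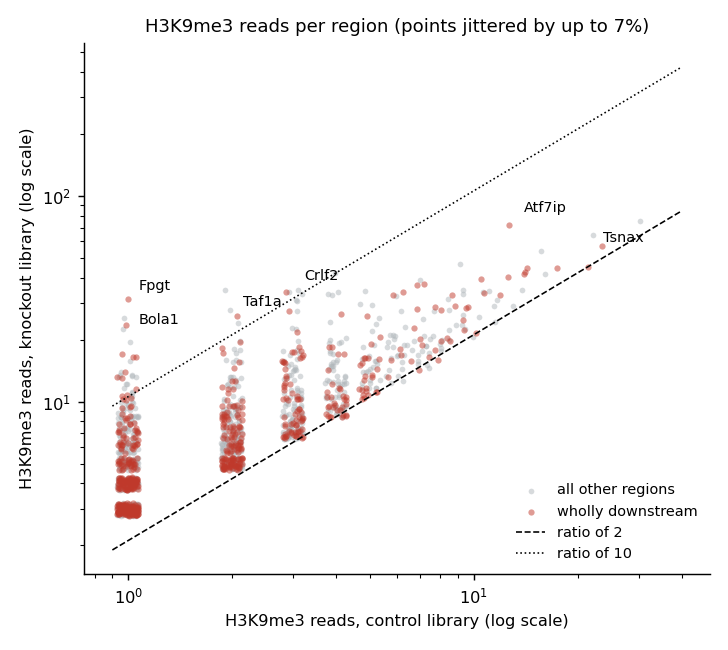
H3K9me3 reads per region in the control (x) and knockout library (y), both on log scales, for the 593 downstream regions and the 788 others, with lines at ratios of 2 and 10 and points moved slightly so that equal values can be seen. Points crowd at 1 to 3 control reads, all lie above the ratio of 2 before that shift, and Fpgt, Bola1, Taf1a and Crlf2 lie above a ratio of 10.

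At 104 downstream regions the ratio's counting interval was wholly above 1 (17.5%, 14.6 to 20.8). Over the whole table this held for 21.1% of regions, and over all other regions for 23.9% (20.9 to 27.0). Downstream regions also held fewer reads, with means of 2.37 in the control and 8.38 in the knockout, against 2.51 and 9.24, and the part of this in the share was not tested. Among regions with 1 control read the shares were 9.25% (6.18 to 13.2) downstream and 13.5% (10.1 to 17.6) elsewhere. With 2 control reads they were 11.0% (6.31 to 17.5) and 16.2% (11.1 to 22.4), and with 3 or 4 they were 27.7% (19.3 to 37.5) and 32.9% (25.9 to 40.6). With 5 to 9 control reads they were 43.1% (29.3 to 57.8) and 56.2% (44.7 to 67.3). With 10 or more the order turned, with 92.3% of 13 downstream regions (64.0 to 99.8) and 85.7% of 14 others (57.2 to 98.2). The downstream share was thus the lower in 4 of these 5 groups, and the intervals overlapped in each. A fold of at least 2 after adding a pseudocount of 0.0405 RPM was reached by 372 downstream regions (62.7%), against 66.3% over the table.

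Within the downstream regions the joint ratio was nearly the same at every gap to the start site. In quartile groups of increasing gap it was 3.36, 3.34, 3.36 and 3.35, and each interval held the other 3 values. The 149 regions within 164 bp of the start held the most reads, with means of 2.68 control and 9.54 knockout reads, and the 147 farthest the fewest, with 2.20 and 7.80. By gap, the share with an interval above 1 (21.1% over the whole table) was set beside that of upstream regions. Under 100 bp it was 21.4% (13.2 to 31.7) downstream and 25.7% (18.9 to 33.5) upstream. At gaps of 100 to 200 bp the interval lay above 1 for 14.8% of 115 downstream regions (8.85 to 22.6) and 31.6% of 117 upstream regions (23.3 to 40.9). Their joint ratios of 3.48 (3.04 to 3.998) and 3.65 (3.22 to 4.15) overlapped. At 200 to 400 bp the shares were 17.6% (12.9 to 23.3) and 18.0% (11.7 to 26.0). At gaps of 400 bp or more, the shares were 17.3% (12.02 to 23.8) and 13.3% (6.58 to 23.2). Of these 4 groups of gaps, that of 100 to 200 bp alone had intervals that did not overlap. In that group upstream regions also held more reads, with means of 2.69 control and 10.4 knockout reads against 2.36 and 8.67 downstream. The part of this in the share was not tested.

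The joint ratio differed more with H3K4me3 height. In the lowest quartile group of height (6.37 to 8.97 RPKM) the joint ratio was 2.86 (2.56 to 3.20), and in the group from 11.3 to 15.5 RPKM it was 3.68 (3.24 to 4.19). The highest group gave 3.61 (3.19 to 4.11) and the second lowest 3.43 (3.06 to 3.87). The interval of the lowest group overlapped both of these. Control reads moved the other way, from a mean of 2.85 in the lowest group to 2.08 in the highest, while knockout reads stayed between 7.95 and 8.95. Grouped by control reads, the joint ratio of downstream regions was 4.42 at 1 read and 2.86 at 10 or more. In all other regions it was 4.76 and 2.51. The part of the control reads in the difference with height was not tested. Across quartile groups of width the ratio ran from 3.07 (2.73 to 3.46) in the narrowest to 3.61 (3.21 to 4.08) and 3.56 (3.16 to 4.03) in the wider ones, with overlapping intervals. Over single regions the rank correlation of the ratio was 0.15 with height, 0.11 with width and 0.00 with the gap.

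**Figure D5:**
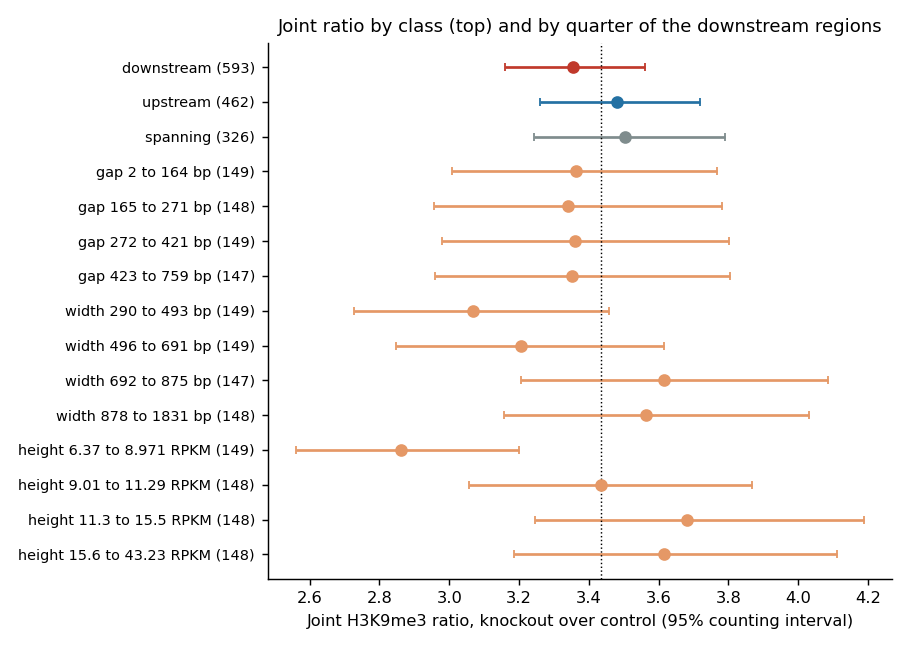
Joint H3K9me3 ratio of knockout over control (points) with 95% counting intervals (bars), by class of region and, below, by quartile group of gap, width and H3K4me3 height among the 593 downstream regions; numbers of regions are in brackets and the dotted line is the whole table at 3.43. The gap groups lie at 3.34 to 3.36. The lowest height group, at 2.86, lies below the others, and its interval overlaps those of the second lowest and highest height groups.

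At 17 downstream regions (2.87%) the counting interval lay above 2, against 3.48% over the table. They were picked out here after their values were seen. The 8 highest log2 ratios among members with a mean at or above the table's median belonged to Fpgt, Bola1, Taf1a, Crlf2, 2510002D24Rik, Atxn10, Cfap36 and Cops7a, and all 8 were among the 17. Fpgt encodes an enzyme that activates recycled fucose, and its region of 924 bp, 104 bp past the start, held 1 control read and 32 knockout reads (ratio 30.3, 5.06 to 1234). Bola1 had 1 and 22 reads, 532 bp past its start (chromosome 3, 96196583 to 96197054), a ratio of 20.8 (3.37 to 860). Cops7a, a subunit of the COP9 signalosome, had 1 and 14 reads, 617 bp past its start, a ratio of 13.3 (2.02 to 560). Crlf2, which encodes a chain of the receptor for the cytokine TSLP, had 3 and 36 reads 441 bp past its start (11.4, 3.59 to 57.7), and Taf1a had 2 and 27 reads 194 bp past its start (12.8, 3.21 to 111). Atxn10, Cfap36 and 2510002D24Rik had 1 and 16 reads each (15.1, 2.35 to 635). Upper limits are wide where the control value is 1 read.

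The other 9 included 8 with at least 2 control reads. Atf7ip, with the highest knockout level of all, had 13 control reads (0.527 RPM) and 77 knockout reads (2.95 RPM) in a region 106 bp past its start. Its ratio was 5.61 (3.09 to 11.0). Slc17a5, the lysosomal sialic acid transporter, had 3 and 27 reads, with a ratio of 8.52 (2.62 to 43.9). Akip1 had 4 and 27 reads, with a ratio of 6.39 (2.23 to 25.1). Mtr had 2 and 19 reads in the widest downstream region, a ratio of 8.99 (2.17 to 79.6). Nop14, a factor of small ribosomal subunit assembly, and Tasp1, the protease that cleaves the methyltransferase MLL, had 6 and 33 reads each, a ratio of 5.21 (2.15 to 15.2). Nmral1 and the non-coding gene Smc2os had 7 and 36 reads each, a ratio of 4.87 (2.14 to 13.0). Dhx37, an RNA helicase of ribosome assembly, had 1 and 14 reads, like Cops7a.

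The regions with the most knockout reads after Atf7ip had lower ratios. Tsnax, the partner of translin in an RNA-cleaving complex, had 22 and 55 reads (chromosome 8, 125013344 to 125013937), a ratio of 2.37 (1.42 to 4.08). The non-coding gene 4930592C13Rik had 22 and 48 reads, with a ratio of 2.07 (1.22 to 3.59). Tug1, a long non-coding RNA, had 18 and 47 reads, with a ratio of 2.47 (1.41 to 4.52). Mir5103 had 15 and 45 reads in a region of 348 bp, a ratio of 2.84 (1.55 to 5.49). That region begins 335 bp past the listed start, which is the 5′ end of the annotated hairpin. The control library held 15 to 22 reads in these 4, and only 13 of the 593 regions had 10 or more control reads. The other microRNA regions were near the bottom of the range, with 2 and 5 reads at Mir484 and Mir5135 and 1 and 3 at Mir1934.

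Long non-coding genes as a class held more reads than coding genes. The 36 regions had 154 control and 454 knockout reads, means of 4.28 and 12.6 per region, against 2.21 and 8.04 for the 550 coding regions. Medians lay closer together, with 10 reads in both libraries against 7 and a ratio of 2.84 against 2.91. The joint ratio of the long non-coding regions was 2.79 (2.32 to 3.37) against 3.45 (3.23 to 3.68). The intervals overlapped. The most control reads of a region in this class lay at 4930592C13Rik, then Tug1, then AI506816, which had 14 and 44 reads. The interval lay above 1 for 8 of the 36 (22.2%, 10.1 to 39.2), near the 21.1% of the whole table. Snhg6, a host gene of small nucleolar RNA, had 1 and 9 reads, with a ratio of 8.52 (1.18 to 373).

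The lowest log2 ratios among members with a mean at or above the table's median were at Jagn1, Slc2a12, Lair1 and 4930522P08Rik. Jagn1, an endoplasmic reticulum protein needed by neutrophils, had 8 and 17 reads, with a ratio of 2.01 (0.82 to 5.39). The glucose transporter gene Slc2a12 had 7 and 15 reads (2.03, 0.78 to 5.88), and the inhibitory receptor gene Lair1 had 6 and 13 (2.05, 0.73 to 6.58). The non-coding 4930522P08Rik had 5 and 11 reads (2.08, 0.67 to 7.65). Equal rates in both libraries lay within all 4 intervals, and the heights of these regions (7.18 to 7.89 RPKM) were below the first quartile of the downstream regions.

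Of 21 gene lists, 18 had at least 1 downstream member, and 97 of the 593 regions (16.4%) were in a list. The interval lay above 1 for 21 of these 97 (21.6%), close to the share of the whole table, 21.1%. Over all downstream regions the share was 17.5%. The median ratio over these 97 was 3.22, against 2.84 over all 593. Lists were compared by counts and medians only. No downstream region was listed for clustered protocadherins, olfactory receptors or Hox genes, and none of their genes had any row in the table.

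Genes for making ribosomes gave 11 downstream regions of 80 list genes for the nucleolus and ribosome assembly, with 25 control and 98 knockout reads together (3.71, 2.37 to 6.01). The interval lay above 1 for 3 of the 11: Ltv1 (1 and 10 reads, 9.47, 1.35 to 411), Ebna1bp2 (1 and 8, 7.57, 1.02 to 336) and Nop14. Over the whole table it lay above 1 for 21.1% of regions, and with so few regions these counts say little about a list. Ltv1 is an export and assembly factor of the small subunit and had the highest ratio, and Gnl2, a nucleolar GTPase, the lowest (5 and 11 reads, 2.08, 0.67 to 7.65). Of 15 RNA polymerase I genes, 4 had a downstream region, with 12 and 54 reads (4.26, 2.25 to 8.75). Taf1a, with 2 and 27 reads, supplied 27 of those 54, and Taf1b was lowest with 8 and 18 (2.13, 0.88 to 5.66). Of 7 cytoplasmic ribosomal protein regions, none had an interval above 1; Rps29 was highest (1 and 6 reads) and Rpl35a lowest (3 and 7). Of 3 mitochondrial ribosomal protein regions, Mrpl33 and Mrps36 had 1 and 4 reads each and Mrpl40 had 1 and 3.

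Zinc finger genes with a Zfp symbol, many of which encode repressors that recruit the SETDB1 machinery, had 23 downstream regions. They held 93 and 337 reads, a joint ratio of 3.43 (2.72 to 4.36), close to the whole table. The interval lay above 1 for 10 of the 23 (43.5%, 23.2 to 65.5), against 17.5% of all downstream regions and 21.1% of the whole table. These 23 regions held more reads, with a median total of 13 against 7. Elsewhere it lay above 1 for 10 of 30 spanning Zfp regions (33.3%, 17.3 to 52.8) and 2 of 15 upstream ones (13.3%, 1.66 to 40.5). These intervals overlapped the downstream one. Of the 23, Zfp961 was highest (2 and 15 reads, 7.10, 1.65 to 64.0) and Zfp74 lowest (4 and 9, 2.13, 0.59 to 9.47). Zfp445, a regulator of imprinted genes, had 10 and 42 reads in a region of 1293 bp, a ratio of 3.98 (1.96 to 8.89). Zinc finger genes often resemble each other closely, and how reads with several matches were handled is not stated, so single values are uncertain.

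The remaining lists held few downstream regions. Their counts of intervals above 1 (21.1% of regions over the whole table) therefore say little about a list. Transfer RNA synthetases had 5, from Dars (2 and 11 reads, 5.21, 1.14 to 48.3) to Yars (3 and 7 reads, tied with Aars). The list of RNA polymerase II and III and general factors had 5, of which Taf1a and Taf1b belong to RNA polymerase I; Gtf2h1, a subunit of the factor TFIIH, had 1 and 8 reads (7.57, 1.02 to 336). Splicing factors had 4, from Lsm8 (2 and 7 reads) to Prpf8 (3 and 7), with an interval above 1 at Hnrnpc (5 and 17 reads, 3.22, 1.14 to 11.2). Complex I genes had 4, from Ndufv1 (1 and 5 reads) to Ndufaf7 (4 and 9), and mediator subunits 3, from Med23 (1 and 4) to Med6 (4 and 9), with no interval above 1. Psmd14 and Psmd8, the proteasome members, had 3 and 14 reads and 1 and 6 reads.

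Against the 21.1% of regions with an interval above 1 over the whole table, the lists below are too small to be placed. Of 101 DNA replication and mitosis genes, 6 had a downstream region, from Cenpe, a kinetochore motor (1 and 5 reads), to Anapc4 (4 and 9), and no interval lay above 1. Of 82 DNA repair genes, 4 had one; Ercc1, Ercc4 and Poli shared the ratio of 2.84 and Ercc6 had 2.37, and only for Poli, a translesion polymerase with 9 and 27 reads, did the interval lie above 1 (1.30 to 6.86). Among 48 interferon-inducible and DNA-sensing genes there were 3, led by Trim25, a ubiquitin ligase of antiviral signalling (1 and 10 reads, 9.47, 1.35 to 411), with Oas1b lowest (1 and 3). In the H3K9 and DNA methylation list, Setdb1 had 2 and 9 reads (4.26, 0.88 to 40.5) beside Atf7ip. Vps36 (1 and 7 reads) led 5 lysosome and autophagy regions and 7 regions of trafficking genes were led by Rab39 (2 and 9 reads), with no interval above 1 in either list. Of 40 stem and progenitor genes, 1 had a downstream region: Ly6a, the gene of the sorting marker Sca-1, with 1 and 4 reads. The table holds no row for Kit, Cd34, Flt3 or Slamf1 and none for the deleted Kdm4 genes, so it checks neither the cell type nor the deletion.

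For 79 genes a downstream region was accompanied by a further region of the table. In 1700012D14Rik both lay downstream (3 and 11 reads nearer to the start, 7 and 16 farther away). In the other 78 the further region lay upstream for 64 and spanned the start site for 14. Together the 78 downstream regions had 230 control reads and 865 knockout reads, giving 3.56 (3.08 to 4.14), and their partners 242 and 1001 reads, with a ratio of 3.92 (3.40 to 4.53). The downstream ratio over the partner ratio was 0.91 (0.74 to 1.12). The downstream ratio was higher in 32 genes, lower in 39 and equal in 7. Downstream regions were the wider in 53 genes and the higher in H3K4me3 in 45. The distance between both regions of a gene had a median of 349.5 bp and ran from 106 to 1156 bp.

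The interval lay above 1 at 20 of the 78 downstream regions and at 31 of their partners, and at both in 10 genes. The shares over all downstream and all other regions were 17.5% and 23.9%, and 21.1% over the whole table. Reads could differ between regions of 1 gene. Zfp33b had 12 and 38 reads downstream (2.998, 1.53 to 6.30) and 3 and 33 upstream (10.4, 3.27 to 53.1). Rbfa, a mitochondrial ribosome assembly factor, had 12 and 35 reads downstream (2.76, 1.40 to 5.84) and 1 and 14 upstream (13.3, 2.02 to 560). In Ppp1r21 the order was the other way, with 1 and 13 reads downstream (12.3, 1.85 to 523) and 11 and 35 upstream (3.01, 1.495 to 6.58). These intervals overlapped within each gene.

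In 3 further genes both regions had intervals that overlapped. Tasp1 had 6 and 33 reads downstream (5.21, 2.15 to 15.2) and 4 and 18 in the spanning region (4.26, 1.40 to 17.3). Gtpbp6, a GTP-binding protein gene, had 7 and 22 reads downstream (2.98, 1.23 to 8.25) and 11 and 24 upstream (2.07, 0.97 to 4.67). Mtif2 had 5 and 16 reads downstream (3.03, 1.06 to 10.6) and 4 and 35 upstream (8.28, 2.96 to 32.1). In Zfp451 the downstream region held 2 and 6 reads and the upstream one 14 and 35. Znrd1 also held fewer reads downstream (1 and 4) than upstream (9 and 47). 1700028E10Rik held 5 and 15 reads downstream and 3 and 34 upstream, fewer in the knockout but more in the control, and Zfp709 held more knockout reads downstream (30 against 17).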

How the data were processed

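H3K9me3 was measured by ChIP-seq in 1 control and 1 knockout library of LSK cells, grouped by the genotype label. Trimmomatic, Bowtie2 and the build mm10 are named, per the submitters' processing notes. No source used here gives the region caller, the counting window or how duplicates and reads with several matches were handled. The deposited H3K9me3 values were taken to be RPM, and 100% of them were whole multiples of 1 read (0.0405 RPM in the control, 0.0384 RPM in the knockout) within 0.01 reads. The lowest control value was taken as 1 read and the lowest knockout value as 3 reads. All H3K9me3 read counts, library totals and counting intervals rest on this. The deposited ratio is knockout over control. Heights were deposited by the authors as RPKM, and the deposited counts of H3K4me3 reads divided by width gave a single library size of 3.48 M reads. The remaining 18 of 29 columns were not used.

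Positions are given 1-based on mm10. Ratios have exact (Clopper-Pearson) 95% intervals, ratios of joint ratios exact conditional intervals and medians order-statistic intervals; they cover counting error or spread over regions only, as the reads carry no molecular identifiers and each group has 1 library. Interval functions were tested on simulated data. RefSeq genes of GRCm38.p6 were found for all 1381 regions (1376 by accession), and 1 gene name that had become a date was restored. The log2 ratio used a pseudocount of 0.0405 RPM, the 5th percentile of nonzero values.

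Named genes were the 8 highest and 4 lowest log2 ratios among members with a mean at or above the table's median, the 5 highest knockout levels, the 4 widest, 4 highest, 4 nearest and 4 farthest members, the ends of each list with 3 or more members, and up to 10 genes with a further region; others were named after their values were seen. Members, lists and rules were chosen with earlier results of these data known. Python 3.11.15, scipy 1.17.1 and pandas 2.3.3 were used.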

Additional observations from a re-analysis of the deposited data

How the results depend on the processing

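No paired analysis was possible because 1 library stands for each genotype, and for the same reason no replicate could be left out. Of 54 values recomputed under the listed alternatives, 38 stayed within their interval (counts within 1.5 times), 14 moved and 2 changed direction. Setting the sums of both libraries over the whole table equal turned the median log2 ratio from 1.26 to -0.13. It turned the joint ratio from 3.35 to 0.98. This scaling sets the joint ratio of the whole table to 1 by construction. The median log2 ratio became 1.48 with a pseudocount 10 times smaller, 0.61 with one 5 times larger and 1.36 where mean H3K9me3 reached the table's median. Choosing members by their centre (781 regions) gave a median width of 757 bp, a gap of 203 bp and 20 CpG sites, as it adds spanning regions by construction; a minimum gap of 100 bp gave a median gap of 304 bp. With listed starts that equal the outer RefSeq end, 314 regions were left, 57 of them with an interval above 1. With H3K4me3 height at or above the table's median the joint ratio was 3.64, the median width 757 bp, the height 15.2 RPKM, and 55 regions had an interval above 1. With 99% intervals 57 regions had an interval above 1. The matching shares over the whole table were not computed under these settings. The ratio of downstream over other regions lay between 0.897 and 1.01 under the alternatives run. Its interval excluded 1 in regions whose listed start equals the outer RefSeq end (0.897, 0.806 to 0.999) and included 1 under every other alternative run. Reads were pooled over regions, so these intervals leave out variation between regions. The cause was not tested.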
